A study of Homo sapiens with 4 samples.

Results

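The genes described here are the long intergenic noncoding RNA genes that carry a numbered LINC symbol and had a mean of at least 1 FPKM (fragments scaled to 1000000 assigned in a library and to each kilobase of exon) over 4 RNA-seq libraries. They were thus selected on their FPKM values over all libraries, KO and WT alike, and not on the difference between the groups. They number 95 of the 2235 LINC genes in a table of 39259 genes. Symbols were accepted only as LINC followed by digits, which leaves out named lncRNAs, antisense and divergent transcripts and read-through loci. All libraries came from MDA-MB-231, a human triple-negative breast cancer line with a mesenchymal phenotype. Libraries KO 1 and KO 2 are labelled as cells in which mdig was knocked out, and libraries WT 1 and WT 2 as wild-type cells of the same line. Mdig, also called MINA53 and RIOX2, is a JmjC-domain oxygenase of the nucleus and nucleolus. The labels do not say how the gene was disrupted, whether the KO cells are 1 clone or a pool, or whether the replicates of a group came from separate cultures, so each p-value measures only the spread between libraries, which may be technical.

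LINC RNAs are transcribed by RNA polymerase II, and most are capped, spliced and polyadenylated like messenger RNAs but code for no known protein. They are usually far less abundant than messenger RNAs and more restricted to certain cell types. Some act on the gene next door, some act elsewhere in the cell, and for many no function is known. The Integrator complex ends the transcription of many noncoding genes, and the nuclear RNA exosome, brought to its targets by adaptor complexes, degrades many of their transcripts.

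Depth was 48768932 and 52163811 assigned fragments in KO 1 and KO 2, against 45173267 and 22503981 in WT 1 and WT 2. RIOX2 itself stood at 9.23 and 9.82 FPKM in the libraries labelled KO, against 8.60 and 8.24 FPKM in the WT libraries. The RIOX2 transcript was therefore not lower in the libraries labelled KO (log2 change 0.16, limma adjusted p = 0.0546), which does not check the labels, and every direction below is that of the libraries so labelled. Of the 5 markers the line is known to express, all were present, and between the groups CD44 was called higher (0.18), VIM (-0.22) and KRT18 (-0.19) lower, and EGFR and AXL were not called. CD44 stood at 99.5 and 102 FPKM in KO and 93.7 and 84.3 FPKM in WT, and the hormone receptor genes ESR1 and PGR were at or near 0 in all 4 libraries. The epithelial cadherin gene CDH1, listed as a marker near 0, had 0.597 and 0.625 FPKM in KO and 0.177 and 0.128 FPKM in WT. EPCAM and ERBB2, listed as low, were not near 0, with 2.64 and 2.65 FPKM of EPCAM in KO, against 2.15 and 1.87 FPKM in WT (log2 change 0.28, called higher), and 14.3 and 13.2 FPKM of ERBB2 in KO, against 13.2 and 12.7 FPKM in WT. The part of these markers in the results below was not tested.

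The LINC genes were transcribed at low levels and from 22 chromosomes. Mean levels ran between 1.01 and 35.4 FPKM, with a median of 2.16 FPKM. Of the 95, 43 had a mean of 1 to 2 FPKM, 35 of 2 to 5 FPKM, 12 of 5 to 10 FPKM and 5 of 10 FPKM or more. Their summed exon length ran between 271 and 11193 bp with a median of 2119 bp, they had a median of 3 exons, and 9 had a single exon. Together they took 0.0907% and 0.0912% of the assigned fragments in KO, against 0.0874% and 0.0877% in WT. Summed levels were 335 and 338 FPKM in KO, against 329 and 336 FPKM in WT. LINC03033 alone made up 15.0% and 15.2% of that sum in KO, against 6.03% of it in each WT library. Without LINC03033 the sums were 285 and 287 FPKM in KO, against 309 and 316 FPKM in WT, and so lay on the other side.

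The name intergenic held for most of these genes but not for all. By the deposited exon coordinates, 5 of the 95 lay inside or across a protein-coding gene, and 20 shared exon bases with some other gene, 16 of them with a gene on the opposite strand. The strand setting of the counting is not given in the sources used here, so fragments from such overlaps cannot be assigned to 1 gene. A transcript in GENCODE release 29 was found for 81 of the 95. Of these 81, 21 were covered over at least 50% of a transcript, at 95% identity or more, by a transcript of another gene, and the way the counting split fragments among such copies is not known either. In bulk RNA, a lower level in each cell and fewer cells that make the transcript cannot be told apart.

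Set against WT, the KO-labelled libraries had 22 LINC genes higher, 26 lower and 47 that did not pass the threshold (limma on log2(FPKM + 1), adjusted p under 0.05 over all 11716 genes tested). The 48 calls are 50.5% of the LINC genes, and 49.9% of all genes tested were called. In each direction too the shares were near the background, at 23.2% higher against 21.6% of all genes and 27.4% lower against 28.4% of all genes. Both KO libraries lay above both WT libraries for 30 LINC genes (31.6%, against 32.9% of all genes) and below them for 38 (40%, against 44.6% of all genes), while the groups overlapped for 27. The median log2 change was -0.05 over the LINC genes and -0.04 over all genes. The minimum level was set on the mean of all libraries, so 9 LINC genes entered only through their KO mean and 5 only through their WT mean. Of the 9, 6 were called higher, and of the 5, 3 were called lower. Of the 81 with at least 1 FPKM in both groups, 16 were higher and 23 lower. Fits without KO 1 and without KO 2 called 14 LINC genes higher each and 25 and 22 lower, and called 32.5% and 30.1% of all genes. A fit with no minimum level called 12 higher and 22 lower. That fit called 19.0% of its 25798 genes, 8.68% higher and 10.3% lower. Of the calls, 45.8% were higher among LINC genes and 43.2% among all genes, which median-of-ratios scaling moved to 50% and 55.2%.

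A few LINC genes moved by far more than the rest. Changes past 2-fold on this scale were seen for 7 of the 95 (7.37%), for 120 of 10610 protein-coding genes (1.13%), for 13 of 433 other lncRNA genes (3%) and for 1.43% of all genes tested. These 7 were LINC01605, LINC01411, LINC03033, LINC01711 and LINC03040, which were higher, and LINC01404 and LINC01139, which were lower. Of the 7, LINC01605, LINC01411 and LINC03040 entered the set only through their KO level, and the shares are given as a description. On the FPKM means, with nothing added, LINC01061 was also past 2-fold (3.06-fold higher), as were LINC00707, LINC00452, LINC02562, LINC00839, LINC02970 and LINC00342, whose WT mean was between 2.05 and 3.03 times the KO mean. The other lncRNA genes were called lower more often than higher, with 68 higher (15.7%) and 162 lower (37.4%), beside 21.6% and 28.4% of all genes tested.

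**Figure D1:**
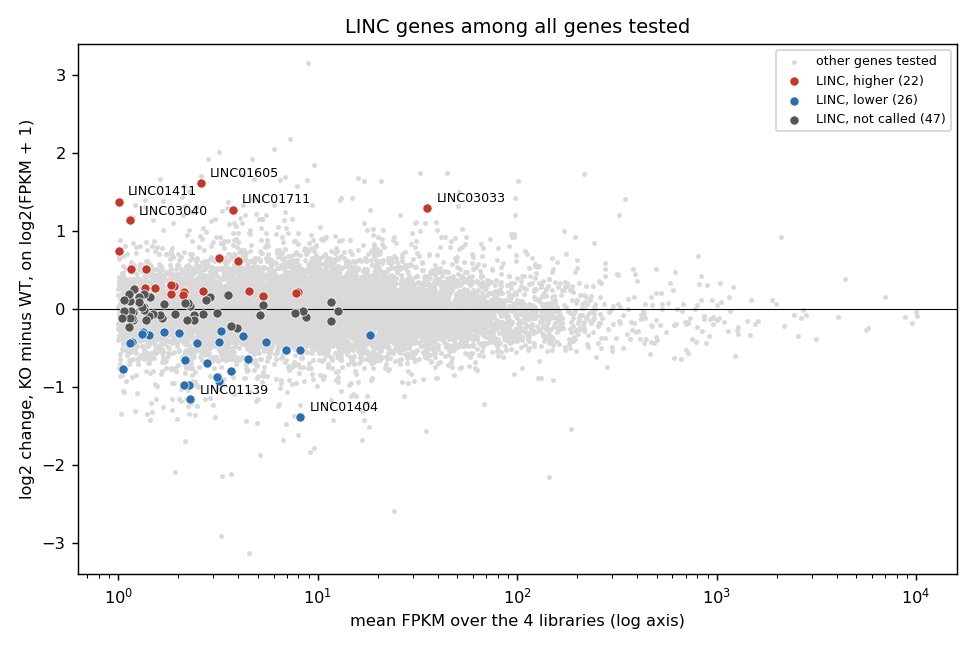
Log2 change in FPKM + 1 (KO minus WT, vertical axis) against the mean FPKM over the 4 libraries (horizontal, log axis), with 1 point per gene tested. The 22 LINC genes called higher and the 26 called lower lie mostly within 1 of zero, and 7 lie beyond it, of which LINC03033 has the highest level.

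LINC03033 was the most abundant of the LINC genes and one of the strongest rises. It had 50.2 and 51.4 FPKM in KO, against 19.8 and 20.3 FPKM in WT. Both KO libraries lay far above both WT libraries, with very little spread within a group. The log2 change was 1.30 ± 0.052 (SE, limma adjusted p = 2.55e-06), which is 2.54-fold on the FPKM means. The gene lies on the plus strand at chr14:61570540-61654713, coordinates as deposited, with 3 exons, and ends 40.8 kb before HIF1A, the oxygen-regulated subunit of hypoxia-inducible factor, on the same strand. HIF1A had 146 and 148 FPKM in KO, against 103 and 93.7 FPKM in WT, and was called higher as well (log2 change 0.58 ± 0.059, limma adjusted p = 0.000188). The coding genes within 5 Mb had a median log2 change of 0.07. Its exons share 114 bp with LINC01303, and 59.1% of a transcript is covered by near-identical sequence of PARP15. The promoter window below, like the others printed here, is RefSeq's on GRCh38.p14, running over 250 bases before the start and 50 after it. It is shown for the size of the rise, and it holds none of the motifs searched.
LINC03033, chr14:61570290-61570589 (plus strand): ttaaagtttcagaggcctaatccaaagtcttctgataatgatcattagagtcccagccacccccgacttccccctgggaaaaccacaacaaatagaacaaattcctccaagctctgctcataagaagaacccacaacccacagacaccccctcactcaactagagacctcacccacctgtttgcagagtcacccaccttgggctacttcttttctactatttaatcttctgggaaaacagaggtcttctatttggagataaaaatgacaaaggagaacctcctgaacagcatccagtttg

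LINC01411 was nearly silent in WT. It had 1.92 and 1.88 FPKM in KO, against 0.164 and 0.0824 FPKM in WT. Behind these levels stood 101 and 106 fragments in KO, against 8 and 2 fragments in WT, so the KO libraries agreed closely while the WT libraries rested on a handful of fragments. The log2 change of 1.37 ± 0.07 (limma adjusted p = 7.59e-06) understates the ratio because 1 FPKM was added. Per assigned fragment the KO libraries held 13.9 times the WT amount, with an exact 95% interval of 7.40 to 29.4 that covers counting error only. The gene spans chr5:174336354-174527139 on the plus strand, and the nearest coding gene, NSG2, lies 227 kb away and was under the minimum level. Its promoter window is shown for the size of the rise. It holds a match to the AP-1 motif, in capitals, here read on the plus strand as TGAGTCA.
LINC01411, chr5:174336104-174336403 (plus strand): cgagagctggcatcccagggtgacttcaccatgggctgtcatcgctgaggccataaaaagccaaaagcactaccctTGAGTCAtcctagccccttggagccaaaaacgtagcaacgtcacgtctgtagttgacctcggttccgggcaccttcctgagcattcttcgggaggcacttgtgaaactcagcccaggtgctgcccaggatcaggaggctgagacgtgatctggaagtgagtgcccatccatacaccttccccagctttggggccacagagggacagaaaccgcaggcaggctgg

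LINC01605 showed the largest change of the set on the log2(FPKM + 1) scale, while with voom on fragments LINC01411 changed more, at 3.76 against 2.51 for LINC01605. It had 4.28 and 4.56 FPKM in KO, against 0.794 and 0.735 FPKM in WT, so the groups were well apart (log2 change 1.62 ± 0.064, limma adjusted p = 2.47e-06). It is a gene of 17 merged exons at chr8:37403516-37599839 on the minus strand, 95.9 kb from ZNF703, a zinc finger transcriptional regulator on the opposite strand. ZNF703 had 8.66 and 8.35 FPKM in KO, against 4.95 and 5.86 FPKM in WT, and was called higher (log2 change 0.57, limma adjusted p = 0.00062).

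LINC01711 and LINC03040 were the other rises past 2-fold on the log2(FPKM + 1) scale. LINC01711, a single-exon gene of 967 bp on chromosome 20, had 6.47 and 5.00 FPKM in KO, against 1.85 and 1.70 FPKM in WT (log2 change 1.27 ± 0.11, limma adjusted p = 0.000179). The KO libraries differed from each other but lay above both WT libraries. The neighbouring gene STX16, which encodes a syntaxin of the trans-Golgi network, moved the other way, with 16.0 and 16.5 FPKM in KO, against 20.5 and 22.3 FPKM in WT (log2 change -0.37, limma adjusted p = 0.00147), and the coding genes within 5 Mb had a median of -0.34. LINC03040 had 1.92 and 1.96 FPKM in KO, against 0.309 and 0.361 FPKM in WT (log2 change 1.14 ± 0.066, limma adjusted p = 1.28e-05). It spans chr6:44000585-44007612 across the body of POLR1C, a subunit of RNA polymerases I and III, and shares 249 bp of exon with the lncRNA gene SCIRT. Its nearest coding gene by start, MRPL14, which encodes a mitochondrial ribosomal protein, had 42.0 and 41.6 FPKM in KO, against 42.5 and 46.3 FPKM in WT and was not called (log2 change -0.08).

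The other 5 of the 10 largest rises were under 2-fold on the log2(FPKM + 1) scale. LINC01061 on chromosome 4 had 1.62 and 1.44 FPKM in KO, against 0.528 and 0.470 FPKM in WT (log2 change 0.75 ± 0.07, or 1.58 with voom on fragments). It lies in a region whose coding genes had a median change of 0.57, and its own change beyond that median was 0.18 (limma adjusted p = 0.0754). LINC00926 on chromosome 15 had 1.48 and 1.62 FPKM in KO, against 0.774 and 0.777 FPKM in WT (log2 change 0.52), with a regional median of 0.37, beyond which its change was 0.15 (limma adjusted p = 0.108). For both, the groups did not overlap, as the choice required, and the call was lost once the regional median was subtracted. Adding 1 FPKM shrinks the changes of such low genes more than those of most coding genes, so these remainders may be understated. With voom on fragments, and no regional median subtracted, LINC00926 changed by 0.99. LINC01085, also on chromosome 4, had 1.93 and 1.68 FPKM in KO, against 0.826 and 1.10 FPKM in WT (log2 change 0.52), although the coding genes within 5 Mb had a median of -0.43. LINC01615 had 4.45 and 3.75 FPKM in KO, against 2.16 and 2.34 FPKM in WT (log2 change 0.65). LINC01786, at 0.62, is described with the divergent genes. The nearest coding genes of LINC01061, LINC01615 and LINC00926, which are FABP2, THBS2 and CGNL1, were under the minimum level, and that of LINC01085, BOD1L1, a factor that protects stalled replication forks, was called lower with a log2 change of -0.34.

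LINC01404 had the largest fall on the log2(FPKM + 1) scale. With voom on fragments, LINC01139 fell further, at -1.78 against -1.61 for LINC01404. It had 4.31 and 3.87 FPKM in KO, against 13 and 11.5 FPKM in WT. Both KO libraries stood at about the same low level and neither came near the WT libraries (log2 change -1.38 ± 0.076, limma adjusted p = 1.12e-05). The gene has 4 exons and lies on the minus strand at chr12:110951683-110957818, 31.1 kb from MYL2, the gene of a cardiac myosin light chain, which was at or near 0 in all libraries. The coding genes within 5 Mb had a median change of -0.23. Its promoter window is shown for the size of the fall and holds none of the motifs searched.
LINC01404, chr12:110957769-110958068 (minus strand): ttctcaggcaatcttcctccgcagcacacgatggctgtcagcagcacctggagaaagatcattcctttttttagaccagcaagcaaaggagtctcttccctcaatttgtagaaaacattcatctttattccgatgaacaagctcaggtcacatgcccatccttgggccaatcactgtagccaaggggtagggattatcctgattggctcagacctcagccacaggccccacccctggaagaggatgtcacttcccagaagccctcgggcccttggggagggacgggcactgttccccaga

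LINC01139 was the other gene with a fall past 2-fold on the log2(FPKM + 1) scale. Under the name LINK-A it has been described in triple-negative breast cancer as an RNA that binds signalling kinases and stabilises HIF1A protein. It had 1.03 and 1.05 FPKM in KO, against 3.67 and 3.45 FPKM in WT (log2 change -1.16 ± 0.063, limma adjusted p = 9.21e-06). The KO libraries were almost equal and lay below both WT libraries. It lies at chr1:238480384-238486017, and its nearest coding gene, ZP4, an egg-coat glycoprotein gene 589 kb away, was listed at 0 in all libraries.

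LINC00839, studied in several cancers, fell to 1.87 and 1.92 FPKM in KO, against 4.54 and 4.37 FPKM in WT (log2 change -0.92 ± 0.06, limma adjusted p = 2.27e-05). The coding genes within 5 Mb of it on chromosome 10 had a median of 0.41, and the nearest, the zinc finger gene ZNF33B, had 1.86 and 2.09 FPKM in KO, against 1.63 and 1.56 FPKM in WT and was called higher (log2 change 0.20). So the LINC gene was lower in KO in a stretch whose coding genes had a median change above zero. Its promoter window is shown for the size of the fall. It holds the letters of the TATA box, TATAAA, in capitals, here just after the annotated start.
LINC00839, chr10:42475241-42475540 (plus strand): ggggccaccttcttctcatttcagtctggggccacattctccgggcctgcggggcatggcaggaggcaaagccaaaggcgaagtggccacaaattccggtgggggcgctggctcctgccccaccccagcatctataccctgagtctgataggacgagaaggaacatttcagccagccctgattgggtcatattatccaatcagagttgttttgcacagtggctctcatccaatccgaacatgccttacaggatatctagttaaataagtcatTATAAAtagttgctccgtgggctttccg

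The remaining falls among the 10 largest had log2 changes between -0.97 and -0.66. LINC02562 on chromosome 4 had 1.15 and 1.28 FPKM in KO, against 3.36 and 3.29 FPKM in WT (log2 change -0.97), with a regional median of 0.32. Its nearest coding gene PARM1 was under the minimum, at 0.277 and 0.322 FPKM in KO, against 1.25 and 1.30 FPKM in WT, and so was not tested. LINC00452 had 1.29 and 0.966 FPKM in KO, against 3.43 and 2.88 FPKM in WT (log2 change -0.97). Of the 3 LINC genes on chromosome 4, then, LINC01061 had the sign of its regional median, while LINC01085 and LINC02562 had the opposite sign. PARM1 itself was lower in both KO libraries, as LINC02562 was.

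LINC02970 on chromosome 20 had 1.89 and 1.95 FPKM in KO, against 4.44 and 4.22 FPKM in WT (log2 change -0.87 ± 0.061, limma adjusted p = 3.09e-05). Its neighbour SLCO4A1, an organic anion transporter gene 38.2 kb away on the opposite strand, had 9.46 and 9.51 FPKM in KO, against 20.7 and 22.6 FPKM in WT (log2 change -1.11, limma adjusted p = 1.05e-05). Both genes of the pair were thus lower in both KO libraries. LINC00342 had 2.29 and 2.53 FPKM in KO, against 4.81 and 5.06 FPKM in WT (log2 change -0.80), and a near-identical copy covers 100% of a transcript of it. LINC00707 had 0.494 and 0.562 FPKM in KO, against 1.49 and 1.71 FPKM in WT (log2 change -0.77), and shares 1078 bp of exon with another locus. LINC00960 changed by -0.69 and LINC02454 by -0.66. For all the rises and falls listed, non-overlap of the groups was a condition of the choice.

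**Figure D2:**
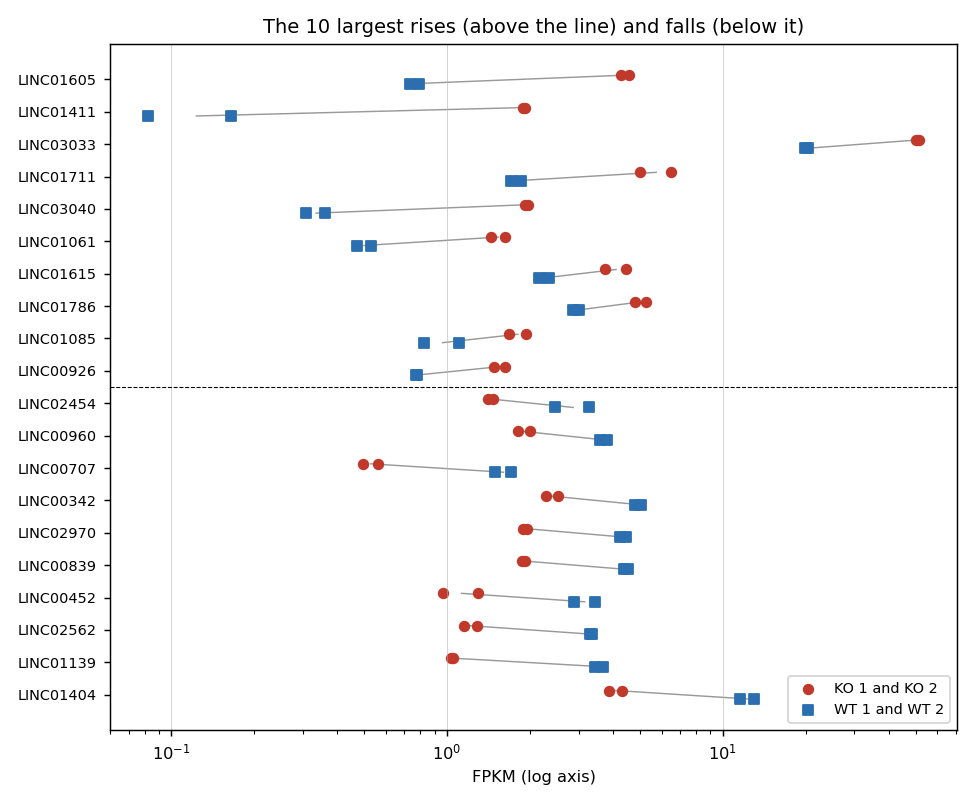
FPKM in each library (horizontal, log axis) for the 10 largest rises (upper rows) and the 10 largest falls (lower rows), KO libraries as red circles, WT libraries as blue squares, and a line joining the group means. Genes were taken only where the groups did not overlap, so no row can show an overlap. The widest gap, for LINC01411, rests on WT levels of 0.164 and 0.0824 FPKM.

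The most abundant LINC genes after LINC03033 moved little. LINC00973 had 16.0 FPKM in both KO libraries, against 19.7 and 21.1 FPKM in WT, and was called lower (log2 change -0.33 ± 0.057, limma adjusted p = 0.00202). With the regional median of -0.18 subtracted, its change was -0.15 and not called (limma adjusted p = 0.063). LINC00467 had 11.4 and 13.5 FPKM in KO, against 11.4 and 13.8 FPKM in WT, with 1 low and 1 high library in each group. LINC01116 had 11.2 and 10.9 FPKM in KO, against 11.5 and 13.2 FPKM in WT (log2 change -0.15, limma adjusted p = 0.109). LINC01234 had 12.3 and 11.7 FPKM in KO, against 11.8 and 10.6 FPKM in WT (log2 change 0.09, limma adjusted p = 0.292), and its groups overlapped. None of these 3 passed the threshold. Without WT 1 the log2 change was -0.24 for LINC01116 and 0.17 for LINC01234. With the regional median subtracted, LINC01234 was called higher at 0.32 (limma adjusted p = 0.00683). LINC00261, which has been studied in endoderm beside the forkhead gene FOXA2, had 8.17 and 8.62 FPKM in KO, against 9.05 and 9.14 FPKM in WT (log2 change -0.10, limma adjusted p = 0.163). FOXA2, 2.35 kb away on the same strand, had 19.9 FPKM in both KO libraries, against 24.4 and 26.7 FPKM in WT, and was called lower (log2 change -0.34, limma adjusted p = 0.0023). Whether the difference between the changes of LINC00261 and FOXA2 passes a threshold was not tested.

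Libraries of 1 group usually lay close together, with a median coefficient of variation of 5.31% in KO and 5.87% in WT. LINC02211, chosen after its values were seen, was an exception, with 2.45 and 4.75 FPKM in KO, against 4.47 and 4.08 FPKM in WT. Its KO 1 value alone was low, its log2 change of -0.24 had an SE of 0.33, and 54.4% of a transcript of it is covered by near-identical sequence of the abundant lncRNA gene NORAD. At the minimum level itself, LINC01411 and LINC01061 with means of 1.01 FPKM and LINC01521 with 1.04 FPKM were just inside. LINC02985 with 0.983 FPKM, LINC01117 with 0.967 FPKM and LINC02575 with 0.956 FPKM were just outside.

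Of the 95, 10 belong to a list of 20 LINC genes that have been studied in cancer. Of these 10, 1 was higher, 4 were lower and 5 were not called, with a median log2 change of -0.08. That is near the 49.9% called among all genes tested. The 4 lower were LINC00839, LINC00342, LINC00707 and LINC00973, all described above. LINC00963, first described in prostate cancer, had 2.59 and 2.18 FPKM in KO, against 1.96 and 1.82 FPKM in WT and was called higher (log2 change 0.22 ± 0.076, limma adjusted p = 0.0391). That call was lost without library KO 1, where the change was 0.14 (limma adjusted p = 0.341), with no minimum level (limma adjusted p = 0.133) and with voom (0.0698). LINC01638, described in triple-negative breast cancer, had 1.19 and 1.6 FPKM in KO, against 0.866 and 1.13 FPKM in WT. Both KO values lay above both WT values, yet the change did not pass (log2 change 0.26 ± 0.10, limma adjusted p = 0.0778). It did pass with quantile normalization (0.30, limma adjusted p = 0.0465) and with the replicate block (0.26, 0.0198). With regional medians subtracted it passed too (0.34, limma adjusted p = 0.0371). Its change was 0.35 without WT 2 and 0.38 without KO 1. LINC00665 and LINC00662, at between 1.25 and 1.42 FPKM in every library, overlapped between the groups, and LINC00662 was called higher with regional medians subtracted (0.21, limma adjusted p = 0.0392).

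Each LINC gene was set against its nearest protein-coding gene, taken as the one with the closest leftmost coordinate on the same chromosome. The median distance between these coordinates was 79.3 kb. The neighbour was itself at or above the minimum level for 63 of the 95 and below it for 32. Of the 48 LINC genes called, 11 had a neighbour called the same way, 10 a neighbour called the opposite way, 10 a neighbour that was not called and 17 a neighbour that was not tested. Same-way pairs thus made up 52.4% of the 21 in which both were called. Among pairs of neighbouring protein-coding genes with both called, 1519 of 1905 went the same way (79.7%), given as a description since pairs share genes and regions. These pairs were not matched to the LINC pairs for distance. Coding genes that are nearest to each other count once from each side. Taking the nearest gene by transcription start gave 9 same-way and 11 opposite pairs, and taking the nearest among tested genes gave 17 and 15. Fits without KO 1 and without KO 2 left 7 and 6 same-way pairs and 5 and 2 opposite ones, and the fit with no minimum level left 9 and 4.

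The same-way pairs included the rises of LINC03033 with HIF1A, LINC01605 with ZNF703 and LINC01786 with SCNN1D, a subunit of an epithelial sodium channel. LINC01278, 75.2 kb from SPIN4, a spindlin family gene, had 4.85 and 5.02 FPKM in KO, against 4.09 and 4.04 FPKM in WT (log2 change 0.23), and SPIN4 had 5.79 and 5.66 FPKM in KO, against 3.55 and 3.27 FPKM in WT (log2 change 0.61). LINC01269 rose with MAP3K9, a gene of a mitogen-activated kinase cascade (log2 changes 0.27 and 0.37). In these 5 pairs both genes were higher in KO.

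Both genes were lower in 6 pairs. Besides LINC02970 with SLCO4A1, LINC01963 fell by 0.42 on the log2 scale and MARCHF4, a ubiquitin ligase gene, by 0.76. MARCHF4 had 2.03 and 1.94 FPKM in KO, against 3.92 and 4.15 FPKM in WT, so the coding gene was further apart between the groups than the LINC gene. LINC00342 paired with ANKRD36C, at -0.39, and LINC02454 with HMGA2, an architectural chromatin protein gene 211 kb away, at -0.23. LINC00857 paired with ANXA11, an annexin gene, at -0.23, and LINC02987 with UQCRFS1, a subunit gene of respiratory complex III on a distant part of the chromosome, at -0.21.

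The opposite pairs took in LINC01711, LINC01085 and LINC00839, given above. NT5E, which encodes the ecto-5'-nucleotidase CD73, had 174 and 184 FPKM in KO, against 129 and 122 FPKM in WT (log2 change 0.51). LINC02535, 45.3 kb away on the other strand, had 1.22 and 1.09 FPKM in KO, against 1.72 and 1.71 FPKM in WT (log2 change -0.33). The pair moved apart in both KO libraries. LINC00941 had 6.90 and 6.08 FPKM in KO, against 9.30 and 10.2 FPKM in WT (log2 change -0.52), while CAPRIN2, an RNA-binding protein gene 40.7 kb away, changed by 0.30. LINC00973 was lower while DCBLD2, a transmembrane receptor gene, was higher at 0.27. LINC00997 changed by -0.31 and KBTBD2, an adaptor gene of cullin 3 ubiquitin ligases, by 0.44. Among the rises, LINC00674 at 0.17 stood beside KPNA2, an importin alpha gene, at -0.18. LINC00963 at 0.22 stood beside NTMT1, a protein N-terminal methyltransferase gene, at -0.23, and LINC02604 at 0.18 beside TMEM248 at -0.16.

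**Figure D3:**
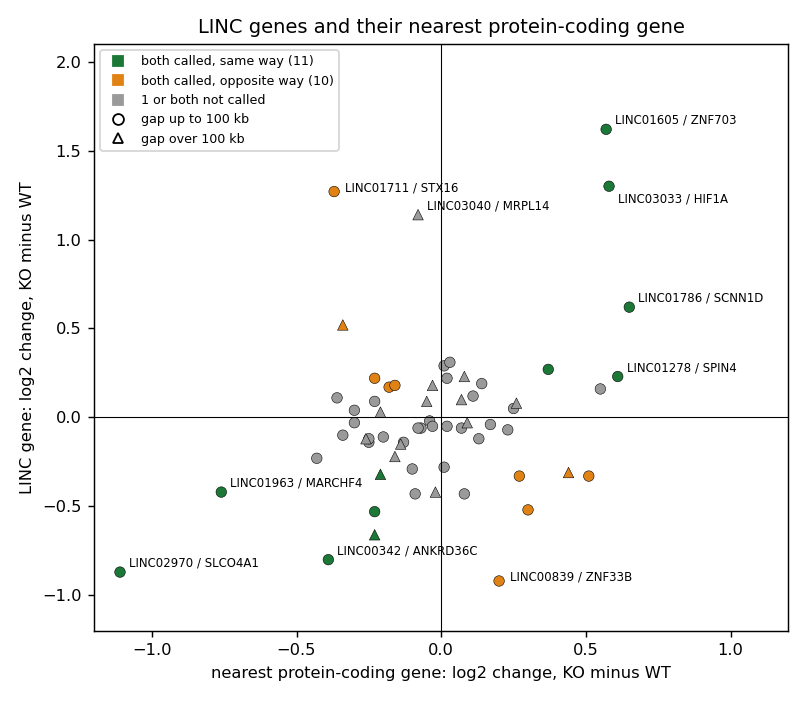
Log2 change of each LINC gene (KO minus WT, vertical axis) against that of its nearest protein-coding gene (horizontal axis) for the 63 pairs with a tested neighbour; circles mark gaps up to 100 kb, triangles larger ones. Green marks the 11 pairs called the same way and orange the 10 called opposite ways, which fall in opposite quadrants, and LINC01711 with STX16 lies far up on the left.

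Over the 63 pairs Pearson's r between the changes was 0.34 and Spearman's rho 0.23. For the 46 pairs within 100 kb they were 0.41 and 0.31, and for the 17 farther pairs -0.06 and 0.07. Pairs share their libraries and some share a neighbour, so these are descriptions across genes. Protein-coding genes against their nearest coding gene gave 0.35 and 0.34 over 6993 genes. Against the median of the coding genes within 5 Mb, the LINC genes gave 0.18 and 0.25 over the 92 with such a median, and coding genes gave 0.47 and 0.44 over 10568. Of the 48 called LINC genes, 34 had the sign of that regional median. Of the 13 with a regional median of at least 0.2 in size, 8 did. The same shares were not taken over all called genes, so these counts have no background beside them. With the regional medians subtracted, 39 of the 48 calls kept their direction and 2 genes changed sign, LINC00339 and LINC01128. On the log2(FPKM + 1) scale their changes of 0.21 and 0.19 were smaller than their regional medians of 0.26 and 0.21. That scale shrinks the changes of low genes. On the FPKM means, with nothing added, LINC00339 was 1.18-fold and LINC01128 1.23-fold higher.

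By position, 38 LINC genes lay within 100 kb of the neighbour on the same strand, 21 on the opposite strand, 28 over 100 kb away, 5 started divergently from it within 5 kb and 3 shared exon bases with it. Of the 38 on the same strand, 13 were higher and 7 lower, with a median log2 change of 0.06. Of the 21 on the opposite strand, 2 were higher and 10 lower, with a median of -0.14. These shares can be read against the 21.6% higher and 28.4% lower of all genes tested, and the difference between the classes was not tested. Of the 28 over 100 kb from the neighbour, 5 were higher and 7 lower. The class rests only on the gene with the closest leftmost coordinate, so the 5 include LINC03040, which lies across the body of POLR1C. Among those sharing exons with the neighbour, LINC01599 was called higher, with 2.06 and 2.35 FPKM in KO, against 1.59 and 1.64 FPKM in WT (log2 change 0.29 ± 0.07), a call lost without KO 2 (limma adjusted p = 0.12). It overlaps VCPKMT, a protein lysine methyltransferase gene, which did not pass the threshold (log2 change 0.01).

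**Figure D4:**
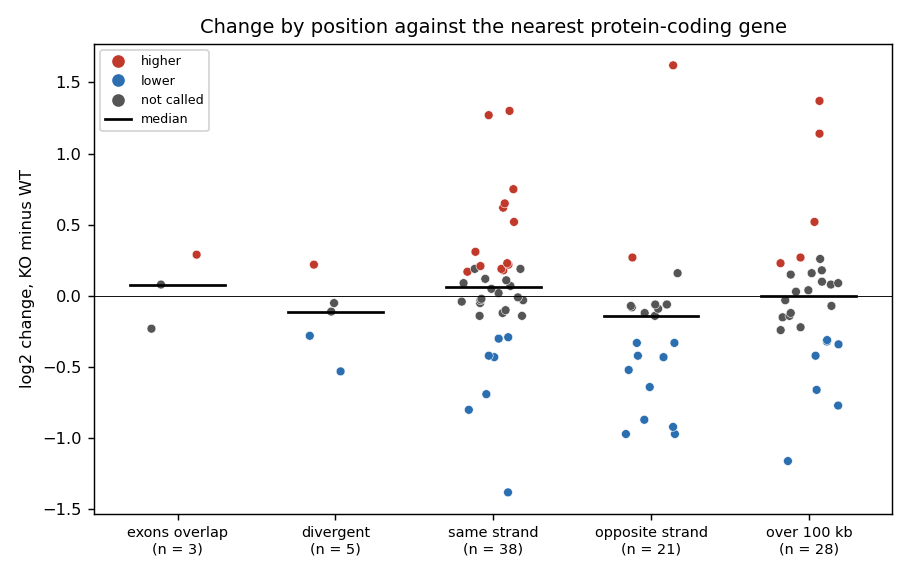
Log2 change of each LINC gene (KO minus WT, vertical axis) by its position against the nearest protein-coding gene, with a bar at the median of each class. The opposite-strand class holds 10 genes called lower and 2 higher, and LINC01605 stands alone at its top.

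In all, 7 LINC genes started within 5 kb of a protein-coding gene on the other strand. They headed away from it, except that LINC01547 overlapped SLX9 at the starts, sharing 173 bp of exon. LINC00205 starts 138 bp from POFUT2, a protein O-fucosyltransferase gene. It had 8.71 and 8.60 FPKM in KO, against 7.58 and 6.97 FPKM in WT (log2 change 0.22 ± 0.061, limma adjusted p = 0.0168). POFUT2 had 12.9 and 12.6 FPKM in KO, against 12.1 and 13.2 FPKM in WT, so its groups overlapped while those of LINC00205 did not. The LINC00205 call was lost without KO 1 or KO 2 (limma adjusted p = 0.116 and 0.0962). LINC01786 starts 148 bp from UBE2J2, a ubiquitin-conjugating enzyme gene of the endoplasmic reticulum. It had 5.26 and 4.81 FPKM in KO, against 2.86 and 3 FPKM in WT (log2 change 0.62 ± 0.065, limma adjusted p = 0.000215). UBE2J2 had 13.5 and 13.2 FPKM in KO, against 12.5 and 14.1 FPKM in WT, and its groups overlapped (log2 change 0.00 ± 0.067). The other neighbour of LINC01786, SCNN1D, lies 0.988 kb from it on the same strand and was higher, with 6.22 and 6.06 FPKM in KO, against 3.01 and 4.18 FPKM in WT (log2 change 0.65, limma adjusted p = 0.00665). The promoter windows of these divergent genes are shown because a single stretch lies between both starts. In both, capitals mark the bases from the start of the coding gene to the base before the start of the LINC gene, and both are rich in G and C (72.3% and 77.3%).
LINC00205, chr21:45287802-45288101 (plus strand): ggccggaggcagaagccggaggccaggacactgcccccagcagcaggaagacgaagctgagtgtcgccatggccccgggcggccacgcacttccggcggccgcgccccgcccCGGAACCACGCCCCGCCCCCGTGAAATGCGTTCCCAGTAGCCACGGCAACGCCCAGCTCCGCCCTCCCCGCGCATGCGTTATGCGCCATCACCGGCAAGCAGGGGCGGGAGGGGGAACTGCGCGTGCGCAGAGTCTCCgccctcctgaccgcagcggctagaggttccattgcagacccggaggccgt
LINC01786, chr1:1273752-1274051 (plus strand): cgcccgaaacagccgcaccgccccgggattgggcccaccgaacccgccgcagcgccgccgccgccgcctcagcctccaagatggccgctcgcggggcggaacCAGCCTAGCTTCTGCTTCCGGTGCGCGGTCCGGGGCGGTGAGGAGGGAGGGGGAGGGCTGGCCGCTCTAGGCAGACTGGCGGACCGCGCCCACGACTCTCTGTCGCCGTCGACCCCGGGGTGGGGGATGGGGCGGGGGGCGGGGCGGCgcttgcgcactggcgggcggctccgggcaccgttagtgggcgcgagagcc

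Among the other divergent pairs, LINC00857 had 5.73 and 5.23 FPKM in KO, against 8.30 and 8.45 FPKM in WT (log2 change -0.53 ± 0.062), and starts 1902 bp from ANXA11, which was lower too. LINC01089, described in breast cancer as an inhibitor of metastasis under the name LIMT, had 2.91 and 2.81 FPKM in KO, against 3.30 and 4.12 FPKM in WT (log2 change -0.28 ± 0.087, limma adjusted p = 0.029). That call was lost without KO 1, KO 2 or WT 2 (limma adjusted p = 0.0814, 0.127 and 0.0553), with no minimum level (0.128), with median-of-ratios scaling (0.0627) and with regional medians subtracted, where the change was -0.08 (0.476). Its partner SETD1B, a histone H3 lysine 4 methyltransferase gene, did not pass (log2 change 0.01). LINC00938 with ARID2, LINC01547 with SLX9 and LINC01521 with PATZ1 were not called, and of these partners SLX9 (-0.43) and PATZ1 (-0.20) were called lower.

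A promoter window in the RefSeq table was found for 70 of the 95 LINC genes, for 8836 tested protein-coding genes and for 1470 LINC genes under the minimum level. The median GC content was 57.8% in the LINC windows, 65.7% in the coding ones, 47.3% in those of LINC genes under the minimum and 58.3% over all 27305 windows. The median number of CpG dinucleotides was 9.5, 27, 4 and 14 in the same order. Searched on both strands, the TATA box TATAAA occurred in 10.0% of the LINC windows and 12.0% of all windows, and the E-box CACGTG in 4.29% and 7.42%. The motif TGANTCA, which includes the AP-1 site TGACTCA, occurred in 15.7% and 7.75%. It also occurred in 13.8% of the windows of LINC genes under the minimum and in 4.07% of the tested coding ones. All the LINC windows with a match held the form TGACTCA, which was counted separately only after these matches were seen. It occurred in 11 of 70 LINC windows (15.7%), 4.91% of all windows, 2.63% of the tested coding windows and 7.69% of those of LINC genes under the minimum. By call it was found in 6 of 17 windows of LINC genes that were higher, 3 of 16 that were lower and 2 of 37 that were not called. The windows of all genes tested were not split by call, so these counts have no background beside them. The difference between them was not tested. A match is a description of the letters in the window, and no binding was measured.

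The 13 matches in these 11 windows are printed below to show where they fall, each as 29 bases with the motif in capitals and read on the strand that gives TGACTCA. Nearest to the annotated start were those of LINC00702, LINC00963, LINC00618 and LINC02535, with centres 17, 22, -24 and -24 bases from it. LINC01615 and LINC02535 each held a pair of matches. The RefSeq start used for LINC00973 lies 127 bp from the start in the deposited table.
LINC01411, chr5:174336169-174336197 (minus strand): aggggctaggaTGACTCAagggtagtgct
LINC01061, chr4:119410684-119410712 (minus strand): tgacctcacaaTGACTCAagctaccactt
LINC01615, chr6:169163191-169163219 (plus strand): atggactttacTGACTCAtcactgagttc
LINC01615, chr6:169163102-169163130 (minus strand): ctgtgctgccgTGACTCAggtttgccatt
LINC01269, chr14:70698470-70698498 (minus strand): tgcagccacagTGACTCAgcaggaaaaga
LINC00963, chr9:129488668-129488696 (minus strand): gggggcggcgaTGACTCAgggccccgaga
LINC00339, chr1:22025079-22025107 (plus strand): actgtatccacTGACTCAtctggagtgat
LINC00618, chr14:96943541-96943569 (plus strand): ccattatgactTGACTCAgctgggaacca
LINC00702, chr10:4243881-4243909 (minus strand): acaactccacaTGACTCAgaagcccttct
LINC00973, chr3:98980995-98981023 (minus strand): gggtataagtaTGACTCAtttcttcactt
LINC02535, chr6:85404965-85404993 (minus strand): agattatactgTGACTCAgcttcattgcc
LINC02535, chr6:85404812-85404840 (minus strand): gccagccagctTGACTCAccgcccccaca
LINC00601, chr10:126422016-126422044 (plus strand): caagcatttgcTGACTCActcagggagcc

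Of the machinery that limits noncoding transcripts, the nuclear exosome and its adaptors had 21 genes tested, of which 4 were higher, 9 lower and 8 not called, with a median log2 change of -0.11. Of all genes tested, 21.6% were higher and 28.4% lower. EXOSC4 and EXOSC5, ring subunits of the exosome, changed by -0.63 and -0.53, and ZC3H3, an adaptor of the poly(A) tail exosome targeting connection, by -0.41. EXOSC9, another ring subunit, changed by 0.56, with 45.4 and 46.7 FPKM in KO, against 30.8 and 31.1 FPKM in WT. PABPN1, the nuclear poly(A)-binding protein gene, changed by 0.23 and RBM7, an adaptor subunit, by 0.20. Subunits of 1 complex therefore moved in both directions, though not equally often. From EXOSC1 to EXOSC9, EXOSC9 alone was called higher, EXOSC6 was not called and the others were called lower. EXOSC10 was called higher (0.17). Of Integrator and the termination factors, 29 genes were tested, of which 5 were higher, 7 lower and 17 not called, with a median of -0.01. INTS12 and INTS14 each changed by 0.39 and INTS11, the RNA-cleaving subunit, by 0.28, while CSTF1 changed by -0.34, the cap-binding gene NCBP1 by -0.33 and CSTF3 by -0.30. These changes were not tested against those of the LINC genes.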

How the data were processed

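RNA was sequenced from 4 libraries, grouped by title as KO (2) and WT (2). STAR, Subread and DESeq2 are named in the submitters' processing notes, without versions or settings. Not given in the sources used here are the build, the annotation and whether counting used strand. Per the file headers, the authors' deposited table holds FPKM values with exon coordinates and lengths. FPKM times length summed to 1000000 in each library, and division by the smallest value gave whole fragments for 100% of values (tolerance 0.001). Symbols came from RefSeq (GRCh38.p14) for 37708 of 39259 Entrez IDs (96.0%), and 98.4% of matched genes at 1 locus had a start or end within 1000 bp of that build.

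Limma 3.58.1 (R 4.3.3, trend and robust) was run on log2(FPKM + 1), KO minus WT, over the 11716 genes whose mean reached 1 FPKM, with Benjamini-Hochberg adjustment at 0.05. Such changes understate those of low genes. The script was tested on simulated data. Regional medians took tested coding genes within 5 Mb of the start. They were subtracted on the log2(FPKM + 1) scale, where low genes are shrunk more than the coding genes behind most medians. Near-identical copies were sought with BLAST 2.17.0 in GENCODE 29. Alternatives were a pseudocount of 0.1, other minimum levels, other scaling, no trend or robust, a replicate block, each library left out, voom on fragments, regional medians subtracted, and members without exon overlaps. A fit that left out 1 library had only the other group to take the spread from. Without WT 1 the SE was 0.069 for both LINC00467 and LINC00261, against 0.11 and 0.057 in the main fit. Calls in the fits without a WT library thus rest little on a gene's own spread. More of all genes were called in them than in the main fit.

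Genes, lists and tests were chosen with earlier results of these data known. Values are given for the 6 highest levels, the 10 largest rises and falls, 3 genes on each side of the minimum, the cancer list, the 3 largest called changes per position class, their neighbours, and up to 3 rises and 3 falls per machinery list. The rises and falls were taken among called genes whose groups did not overlap, which all 22 called higher and all 26 called lower met. The pairs called both ways were named in full after the calls were seen. Promoters were printed for the top 2 rises and falls, outside chromosome 8, whose RefSeq start equals the deposited one, and for 2 divergent genes without exon overlap with their partner.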

Additional observations from a re-analysis of the deposited data

How the results depend on the processing

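Against 22 higher, 26 lower and 11 same-way pairs, the fit with no minimum level gave 12, 22 and 9, and a minimum of 5 FPKM, which tests only 17 of these genes, gave 4, 5 and 2. Taking the nearest tested coding gene gave 17 same-way pairs. With each library left out in turn, the counts ran between 14 and 29 higher, 22 and 32 lower, and 6 and 15 same-way pairs. The replicate numbers were not treated as pairs, since they name no shared culture or day. Same-numbered libraries deviated with a correlation of -0.225. Crossing the numbers would only turn its sign, so it cannot settle the pairing. The replicate block gave 20 higher, 28 lower and 12 same-way pairs. A crossed block, added after the data were seen, gave 24, 29 and 15. The other settings stayed within 1.5 times the main counts. Across 13 alternatives, all but the minimum of 5 FPKM, 27 calls kept their direction (9 higher, 18 lower), and no called gene was called the other way in any of them.

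Besides the 2 called genes that changed sign with regional medians subtracted, the sign changes found among genes named by the rule were of uncalled genes. LINC00467 (-0.02) became 0.00 with quantile normalization, 0.04 with median-of-ratios scaling, between -0.14 and 0.11 with 1 library left out (0.11 without WT 2, 0.10 without KO 1), 0.02 with voom and 0.09 with regional medians subtracted. LINC00665 (-0.01) became 0.02 with either scaling, between -0.04 and 0.02 with 1 library left out (0.02 without KO 1, 0.01 without WT 2) and 0.12 with regional medians subtracted. LINC00261 became 0.03 with regional medians subtracted, and LINC00662 (0.03) lay between -0.03 (without KO 1) and 0.08 with 1 library left out, and was called at 0.21 with regional medians subtracted. The cause was not tested. The fit with no minimum level leaves out genes at 0 in all 4 libraries; this was set after a fit with them had been seen. WT 2 had the fewest fragments, which limits the lowest genes most.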

Other observations

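Most LINC genes were under the minimum level. Of 2235, 1228 were at 0 in all 4 libraries and 912 had some fragments but a mean under 1 FPKM. In a fit with no minimum level, 32 of the 912 were higher in KO and 29 lower (limma, adjusted p under 0.05). Of the 25798 genes in that fit, 8.68% and 10.3% were called in these directions. Those 25798 include the genes at 1 FPKM or more, and other genes under 1 FPKM were not counted apart. LINC01694, chosen after its values were seen, had 1.63 and 1.75 FPKM in KO, against 0.112 and 0.0793 FPKM in WT. Behind these stood 533 and 613 fragments in KO, against 34 and 12 in WT (log2 change 1.29, limma adjusted p = 0.00418 in that fit). It is at or above 1 FPKM in KO and far below it in WT. LINC02985, just under the minimum, went the other way, with 0.657 and 0.402 FPKM in KO, against 1.56 and 1.32 FPKM in WT (log2 change -0.67, limma adjusted p = 0.0234 in that fit). LINC00899, chosen after its values were seen, had 0.599 and 0.595 FPKM in KO, against 1.15 and 1.16 FPKM in WT (log2 change -0.43, limma adjusted p = 0.013 in that fit).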
